A study of Mus musculus with 12 samples.

Results

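The regions described here are stretches of mouse DNA listed as open in Sox9 Negative cells of the intestinal epithelium and in no other sorted population. The 4 consensus peak lists (Negative, Sublow, Low and High) were merged wherever peaks overlapped by at least 1 bp or touched. A merged region was taken as a member when only the Negative list held a peak in it. There were 5620 such Negative-only regions among 82365 merged regions, a share of 6.82%. They were 12.7% of the 44405 regions that the Negative list held at all (exact 95% interval 12.3 to 13.0%, which covers counting error only). Members were chosen by the presence and absence of peaks in these same lists, so counts, widths and gaps are given as descriptions and without tests.

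The libraries were made with Omni-ATAC, in which the Tn5 transposase cuts and tags accessible DNA, from C57Bl/6 mice with a Sox9-EGFP reporter. Cells were sorted into Sox9 Negative, Sox9 Sublow, Sox9 Low and Sox9 High populations, with 3 libraries each (12 in all). The labels state that 12000 cells were collected per population, and give no age, treatment or pooling of animals. Each population is represented by 1 consensus list without scores or read counts, so depth is unknown and no value has a replicate error.

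Sox9 is a transcription factor of the intestinal crypt, where stem cells and their early progeny divide. As those cells leave the crypt for the villus they lose Sox9, stop dividing and become mature cells, most of them absorptive enterocytes. Earlier work with the reporter placed mature cells mainly in the Negative population. Stretches of DNA that are open in 1 cell state and not in another are often enhancers at a distance from a gene start, while promoters tend to be open in many cell types. Which genes or sequence motifs lie in the Negative-only regions was not analysed here, since an mm9 genome and annotation were not used. For the same reason the population label was not checked against marker genes.

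The Negative-only regions were short. Each consisted of 1 Negative peak, with a median width of 201 bp (exact 95% interval of the median 199 to 204 bp), lower and upper quartiles of 159 and 273 bp, and a range from 4 to 1642 bp. Of the 5620 regions, 2756 (49.0%) were under 200 bp, 156 (2.78%) reached 500 bp and 3 reached 1000 bp. Regions held by the Low list alone, which were about as numerous at 5283, had a similar median of 205 bp (202 to 209 bp). Regions of High alone were wider at 245 bp (242 to 248 bp), and those of Sublow alone narrower at 184.5 bp (182 to 188 bp). In total the Negative-only regions covered 1.30 Mb, or 6.04% of the bases in the Negative list.

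The width of a Negative peak went with the presence of a Sublow peak at the same place. Sublow is the next population in reporter level. In regions of Negative and Sublow alone, the Negative peak had a median width of 305.5 bp (298 to 312 bp, 2616 peaks). It was 318 bp where Low also held the region and 311 bp where High did. The 3 combinations with Sublow therefore lay close to each other and above the Negative-only regions. Without Sublow, the medians were 224 bp in regions shared with High alone (213 to 232 bp, 541 peaks), 177 bp in those shared with Low and High (169 to 187 bp, 295 peaks) and 172 bp in those shared with Low alone (163 to 180 bp, 262 peaks). Negative peaks shared with Low but not Sublow were thus narrower than the Negative-only peaks, although a second list held them. In regions of all 4 lists the Negative peaks were widest, at 522 bp (517 to 527 bp). Peak width differed with the sharing list in the other lists too. Low peaks had medians of 317, 236 and 188.5 bp in regions shared with Sublow, High or Negative alone, against 205 bp in Low-only regions. High peaks had 341, 230 and 228 bp with Low, Sublow or Negative alone, against 245 bp in High-only regions. Sublow peaks had 267, 225 and 196 bp with Low, Negative or High alone, all above the 184.5 bp of Sublow-only regions.

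**Figure D1:**
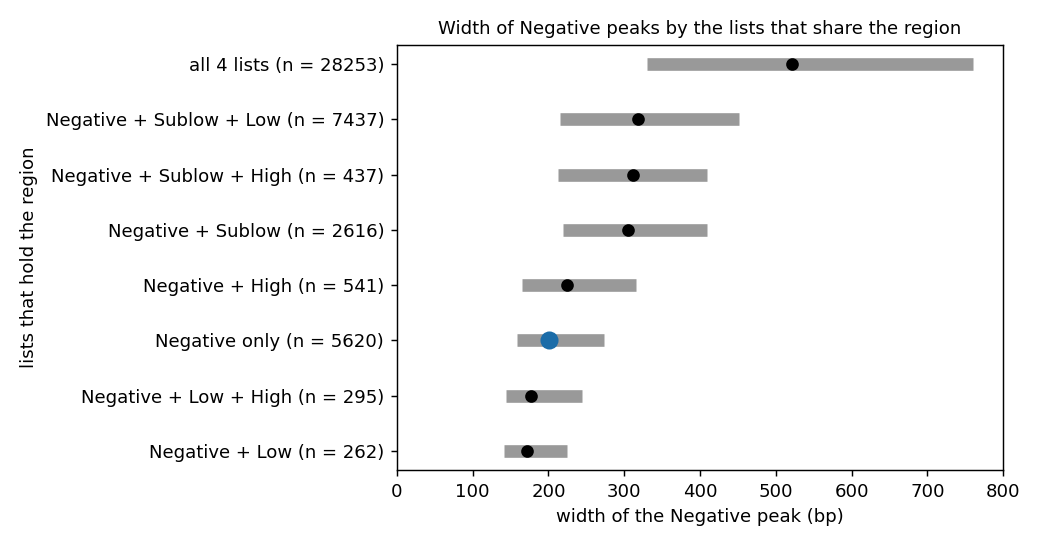
Width of Negative peaks in bp (horizontal axis) by the lists that held the merged region, with the number of Negative peaks in brackets. Points are medians and bars run from the lower to the upper quartile; the Negative-only peaks (blue, median 201 bp) lie below the combinations that include Sublow (305.5 to 522 bp) and between the combinations that do not (172 to 224 bp).

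Narrow Negative peaks were often Negative-only and wide ones rarely. Of the 2592 Negative peaks from 100 to 149 bp, 931 (35.9%, exact 95% interval 34.1 to 37.8%) were held by no other list. The share was 25.2% from 200 to 249 bp, 9.97% from 300 to 399 bp and 1.51% from 500 to 749 bp. Among the 3095 Negative peaks of 1000 bp or more, 3 were Negative-only (0.0969%). A wider peak has more bases in which to meet a peak of another list, and the part of this in the fall was not tested. At equal width the 4 lists differed. From 250 to 299 bp, 17.8% of Negative peaks were held by no other list (16.6 to 19.1%), against 14.3% in the Low list (13.3 to 15.3%), 3.55% in the Sublow list (2.998 to 4.160%) and 36.7% in the High list (35.3 to 38.1%). The Negative share was above the Low share in every width class from 150 to 999 bp. Below 150 bp the order of the Negative and Low lists was the other way round, with 35.9% against 43.3% from 100 to 149 bp.

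**Figure D2:**
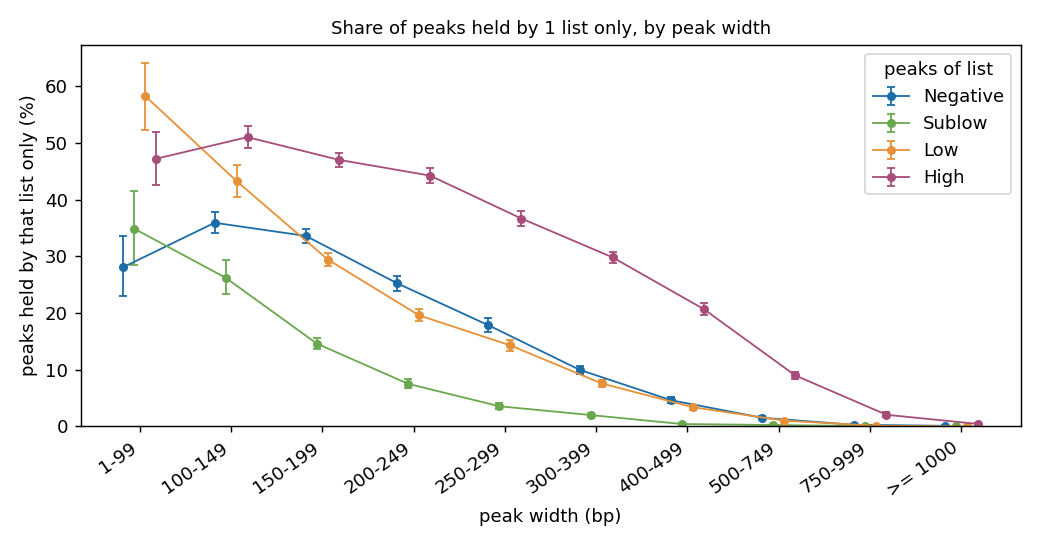
Share of the peaks of each list that no other list held (vertical axis, %), by class of peak width in bp. Points are shares and bars exact 95% intervals (counting error only); the Negative list (blue) falls from 35.9% at 100 to 149 bp to 1.51% at 500 to 749 bp, below the High list in every class.

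The widest Negative-only region was 1642 bp long, at chr19:43867170-43868811 (mm9, as are all positions). The nearest region of another list lay 3031 bp away and was held by Low alone. The next was almost as wide, 1607 bp at chr6:129040661-129042267, with its nearest neighbour 8443 bp away in a region of Negative, Sublow and Low. After these 2 the widths dropped, to 1057 bp at chr3:72690658-72691714 and 998 bp at chr1:187434633-187435630. The chromosome 3 region stood far from the other lists, 79981 bp from a region that all 4 held. The remaining 6 of the 10 widest were 895 bp at chr14:41839684-41840578, 862 bp at chr6:137492578-137493439, 832 bp at chr13:113643752-113644583, 810 bp at chr14:37840602-37841411, 789 bp at chr11:86137262-86138050 and 777 bp at chr8:81800975-81801751. Among the 1000 widest peaks of the whole Negative list only 2 were Negative-only, so these regions are exceptions for their width.

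Most Negative-only regions had an open region of another list within a few kb. Counted to the closest region with a Sublow, Low or High peak, the median gap was 3498 bp (3344 to 3666 bp), with quartiles of 1335.5 and 8505 bp. Within 1000 bp lay 1081 of the 5620 (19.2%), and within 10000 bp 4445 (79.1%). Only 122 (2.17%) were more than 50000 bp away. By this measure Sublow-only regions were nearer, with a median of 2929.5 bp (2654 to 3323 bp), and Low-only and High-only regions farther, at 5305 and 8531.5 bp. The regions measured against differ by class. Measured against 1 common reference, the regions of all 4 lists, Negative-only regions had the smallest median gap. Their median gap to such a region was 8527.5 bp (8226 to 8935 bp), against 10647 bp for Sublow-only (9626 to 11259 bp), 16776 bp for Low-only (15958 to 17519 bp) and 23391.5 bp for High-only regions (22718 to 24255 bp). These intervals treat regions as independent and cover no spread between libraries or animals. Width changed little with the gap and without a steady trend. Its median was 193 bp (188 to 203 bp) in the 495 Negative-only regions within 500 bp of another list's region. It was highest, at 210 bp (201 to 215 bp), for gaps of 5001 to 10000 bp. In the 122 regions beyond 50000 bp it was 203 bp.

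**Figure D3:**
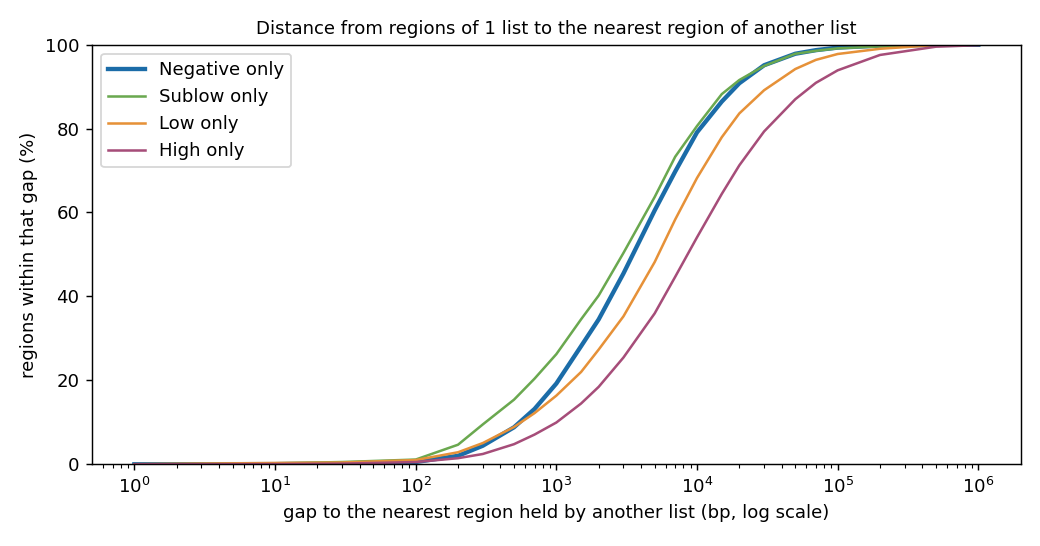
Share of the regions held by 1 list alone (vertical axis, %) whose nearest region of another list lay within a given gap (horizontal axis, bp, log scale). Lines are the 4 lists; at 10000 bp the Negative line (thick blue) has reached 79.1%.

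At the limit of the rule, a few bases decided membership. The smallest gaps of members were 5 bp for a 7 bp region at chr10:126632016-126632022 and 7 bp for a 208 bp region at chr16:5202992-5203199, both beside regions of all 4 lists. Gaps of 11, 13 and 19 bp followed. Just outside the rule, Negative and High peaks shared 1 bp at chr3:108079086-108079891 and 2 bp at chr11:75822334-75822922. The next overlaps were of 4, 6 and 6 bp. Cases this close to the limit were few: 63 members (1.12%) had a gap of 150 bp or less, and 8 of the 3401 regions with 1 Negative peak and 1 peak of 1 other list shared 10 bp or less. A stricter rule for sharing moved more: in 462 of those 3401 regions (13.6%) the overlap was under 50% of the Negative peak, and with a reciprocal overlap of 50% the number of Negative-only peaks was 9432 in place of 5620. Under such a rule that number could only rise. At the other end, 2 members on chromosome 2, at chr2:43151466-43151615 and chr2:43411445-43411732, lay 1292489 and 1032372 bp from the nearest region of another list, which High alone held in both cases. The third was at chr6:79004836-79005150, with a gap of 541675 bp.

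The regions nearest to the Negative-only regions were mostly ones that the Negative list held together with others. For 3770 of the 5620 (67.1%) the nearest region of another list also had a Negative peak. Of all 76745 regions outside the class, 50.5% had one, so the share was 1.33 times as high. Counted in the same way, with each list against its own peaks, the ratio was 1.14 for Sublow-only, 1.07 for Low-only and 1.13 for High-only regions. The shares themselves were 70.8% for Sublow-only (62.0% of all regions outside that class), 72.6% for Low-only (67.7%) and 65.9% for High-only regions (58.2%). A nearest region of the same list was thus more common for Sublow-only and Low-only than for Negative-only regions, from higher shares over all regions. The shares over all regions are not matched for how densely regions lie, and no test was made.

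By combination, regions that Negative held with 1 other list, or with Sublow and High, had the highest ratios as nearest neighbours. Regions of Negative and Sublow alone were nearest to 360 Negative-only regions (6.41%, exact 95% interval 5.78 to 7.08%) and made up 3.40% of all other regions, a ratio of 1.88. The rarer combinations Negative, Sublow and High (57 regions), Negative and High (67) and Negative and Low (32) had ratios of 1.80, 1.70 and 1.67, and the counting intervals of their shares are too wide to order them. Regions of Negative, Sublow and Low followed the same direction with 797 (14.2%, 13.3 to 15.1%) against 9.58%, as did regions of all 4 lists with 2428 (43.2%, 41.9 to 44.5%) against 35.6%. High-only regions were nearest to 631 (11.2%, 10.4 to 12.1%) against 17.8%, a ratio of 0.629. Regions of Low and High alone had a ratio of 0.569 and Low-only regions one of 0.657. All 7 combinations that include Negative had a ratio above 1, and of the 7 that lack it only Sublow-only regions did, at 1.14 (2.53%, 2.13 to 2.97%, against 2.21%). The presence of Negative thus divided the higher ratios from the lower ones, with that 1 exception. The counting interval held the share over all other regions for Sublow-only regions and for those of Negative, Low and High. The latter were nearest to 29 members (0.516%, 0.346 to 0.740%, against 0.383%). The share also fell with the gap. A Negative peak was present in the nearest region for 77.6% of members within 500 bp of it and 55.7% beyond 50000 bp. For the other classes, the highest ratio by combination was 2.1966 for High-only regions, with regions of Low and High alone. It was 1.501 for Sublow-only (Negative, Sublow and Low) and 1.438 for Low-only regions (Sublow and Low alone). High-only regions thus exceeded the 1.88 of the members. Some combinations with the class's own list were below 1 there, such as all 4 lists at 0.875 for High-only and 0.936 for Low-only regions.

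**Figure D4:**
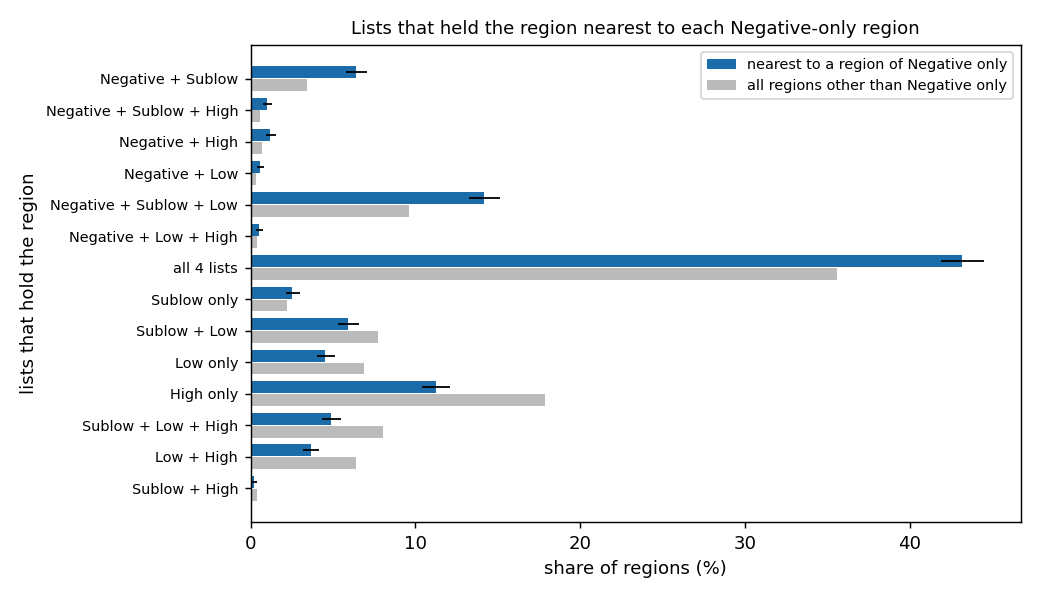
Lists that held the region nearest to each Negative-only region (blue bars, % of 5620, with exact 95% intervals) beside the share of the same combination among the 76745 other regions (grey bars, %). Combinations are sorted by the ratio of the blue to the grey bar, from 1.88 for Negative + Sublow at the top to 0.529 for Sublow + High at the bottom.

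The merged regions directly before and after a member along the chromosome are called its neighbours here. Unlike the nearest regions above, neighbours could be of the same class. The shares with a list in both neighbours or neither thus include same-class regions lying side by side. They are not a separate check on the nearest regions. Both neighbours held a Negative peak for 2667 Negative-only regions (47.5%), against 31.2% of the other regions. Regions of Negative and Sublow alone came close to the members, at 46.5%. Neither neighbour held one for 654 (11.6%), against 25.5%. Counted for each list with its own peaks, both neighbours held the list for 55.8% of High-only regions (41.4% of other regions). It was 55.5% for Low-only (49.2%) and 47.0% for Sublow-only regions (41.0%). The ratio was 1.52 for the members and 1.35, 1.13 and 1.15 for High-only, Low-only and Sublow-only regions, so all were above 1. A High-only region was next to 1195 members (21.3%) and to 29.8% of the other regions. Those other regions include the High-only regions, and among all regions that were not High-only the share was 26.0%. Another Negative-only region was next to 1211 members (21.5%, 20.5 to 22.6%) and to 12.4% of the other regions (12.1 to 12.6%), a ratio of 1.74. The same ratio was 1.75 for High-only, 1.56 for Low-only and 1.37 for Sublow-only regions, so being next to a region of the same class was common to all 4 lists.

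Runs of several Negative-only regions with no other region between them were uncommon. There were 4409 single regions, 496 runs of 2, 65 runs of 3, 3 runs of 4 and 2 runs of 6. One run of 6 spanned 21422 bp, from 116014889 to 116036310 on chromosome 6, with widths of 164, 298, 311, 369, 252 and 154 bp. The other spanned 31246 bp, from 57439583 to 57470828 on chromosome 19, with widths of 214, 249, 369, 265, 132 and 76 bp. No peak of Sublow, Low or High was listed within either span. The third widest Negative-only region, on chromosome 3, belonged to a run of 4 over 81282 bp with neighbours of 401, 500 and 211 bp. Linking Negative-only regions at most 10 kb apart, whatever lay between, put 1182 (21.0%) into groups of 2 or more, and 200 (3.56%) into 62 groups of 3 or more. The shares were higher for the more numerous High-only regions (13694), at 25.2% and 6.24%, and lower for the 5283 Low-only regions, at 12.5% and 1.42%. More regions in a class leave less room between them, and the shares are not at equal numbers of regions. Among the less numerous Sublow-only regions 5.54% were in groups of 2 or more, and no group had 3. Members in groups of 3 or more had a median width of 196.5 bp (185 to 213 bp) and single ones 200 bp (197 to 203 bp).

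On a fixed grid of 100 kb windows, 102 of the 15363 windows with any merged region (0.664%) held 4 or more Negative-only regions, 441 in all. No High-only region was present in 34 of these 102 windows (33.3%), while 46.5% of the 11494 windows without a Negative-only region lacked one. Windows with more Negative-only regions also held more regions in all, with a median of 13 where there were 4 Negative-only regions and of 3 where there were none, so these shares are not at equal numbers of regions. In 15 of the 102 windows the Negative-only regions made up 50% or more of the regions.

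In the window from 32100001 to 32200000 on chromosome 19, 8 of 13 regions were Negative-only, with widths from 132 to 418 bp. Sublow held 4 of the 13, Low 2 and High 2. From left to right, 3 Negative-only regions came first, then a region of Negative and Sublow, and then 3 more, ending at 32145748. A High-only region of 233 bp stood at chr19:32146600-32146832, between that group and the widest member of the window at chr19:32162574-32162991. The single region of all 4 lists, 666 bp wide, was at chr19:32182120-32182785. So 11 of 13 regions had a Negative peak, and the Sublow peaks were shared ones.

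The other chromosome 19 window, from 57400001 to 57500000, held 8 Negative-only regions among 15. The run of 6 described above lay between a 1335 bp region of all 4 lists at chr19:57434940-57436274 and a 1020 bp one at chr19:57478129-57479148. The Negative list held 12 of the regions, Sublow 4, Low 5 and High 5. Both High-only regions, of 386 and 44 bp, lay to the right of the second wide region, where the Negative list had no peak in this window. On chromosome 7, the window from 139900001 to 140000000 had 7 Negative-only regions of 119 to 385 bp among 18. There they were mixed with 6 regions of all 4 lists, and no High-only or Low-only region was present.

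**Figure D5:**
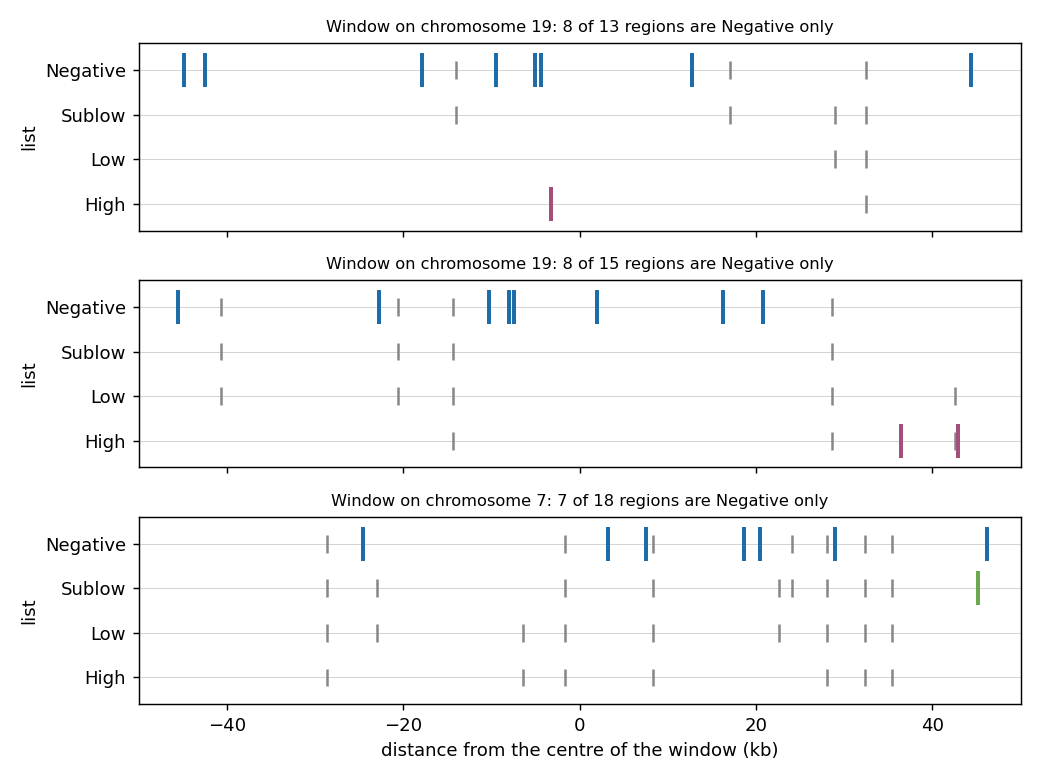
The 3 windows of 100 kb with the most Negative-only regions, with distance from the window's centre in kb on the horizontal axis and the 4 lists on the vertical axis. A tall coloured bar is a region held by that list alone and a short grey bar a region it shares, both drawn at the region's middle and not at its width; the Negative rows have 8, 8 and 7 tall bars.

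Negative-only regions were spread over all chromosomes in near proportion to the merged regions. Across the 19 autosomes they made up 5.38% (chromosome 15, 182 of 3380, exact 95% interval 4.65 to 6.20%) to 7.63% (chromosome 14, 246 of 3224, 6.74 to 8.60%) of the merged regions, with a median of 6.90%. The interval held the overall 6.82% on 18 of the 19, the exception being chromosome 15. Chromosome 19, with 2 of the 3 densest windows, stood at 7.50% (6.53 to 8.57%). On the X chromosome 99 of 1605 regions were Negative-only (6.17%, 5.04 to 7.46%), with a median width of 182 bp, and on the Y chromosome 3 of 25.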

How the data were processed

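Sox9-EGFP sorted populations were profiled by Omni-ATAC-seq. Per the submitters' processing notes, the tools were MACS2 2.1.2, Bowtie2 2.3.4, Trim Galore 0.4.3, deepTools 2.5.2 and Picard 2.10.3, and the build mm9. Not given in the sources used here are their roles and settings, any Tn5 shift and the rule behind the consensus. Each deposited file from the authors lists the peak positions of 1 population and holds no score or signal, so a peak's absence may mean closed DNA or signal under the calling limit. Starts and ends were both read as 1-based and inclusive, since each list holds peaks whose start equals their end. Peaks were merged at 1 bp overlap or touching, and gaps are the bases between regions. Intervals are exact binomial (95%), for medians from order statistics. Merging and gaps were tested on 82365 simulated regions, and 100% had the right lists. The simulated regions lay apart on a single chromosome, each with a peak over its whole length. Touching peaks and the smallest gaps, where the rule decides membership, were therefore not covered. Regions are named by a rule on width, gap, runs and windows of 100 kb. The members, the rule and the alternatives were chosen with earlier results of these data known. RefSeq tables on GRCm38 were not used, since positions are on mm9. Python 3.11.15 was run with matplotlib 3.10.9, scipy 1.17.1, pandas 2.3.3 and numpy 2.4.6.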

Additional observations from a re-analysis of the deposited data

How the results depend on the processing

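No paired analysis was possible because the lists combine the libraries of a population, so no library could be left out either. Alternatives that need genes, base composition or motifs were not run for want of an mm9 sequence and annotation. When sharing needed a reciprocal overlap of 50%, 9432 Negative peaks were Negative-only, a count of peaks and not of merged regions. The number of Negative-only regions was 3624 with the 22730 widest peaks of each list, a setting with fewer peaks by construction. Those 3624 were 10.6% of the merged regions in that setting, against 6.82% in the main one. The other 5 settings gave 3838 to 7764, or 5.52 to 10.8% of their merged regions. Median width stayed within its interval in all 3 settings run. The median gap was 4195.5 bp with peaks of at least 200 bp, and 8527.5 bp to regions of all 4 lists. The share with a Negative-only region next to it was 11.5% on the left side alone, and groups of 3 or more held 1620 regions when linked at 50 kb. The direction of change was fixed in advance for the gap to regions of all 4 lists, the left side and the 50 kb link. It was also fixed for the Negative-only count in several settings. That count could only rise with the reciprocal overlap or with each list limited to the length of the shortest. It could only fall on autosomes alone or with peaks up to 500 bp apart merged. With peaks of at least 200 bp the share over all merged regions was 5.52%, in place of 6.82%. On chromosome 15 it was then 4.45% and on chromosome 14 6.10%, still below and above the share over all regions. In all, 8 values moved by more than 1.5 times (counts) or out of their exact interval (medians and shares). They include changes of fixed direction, as do the values that did not move, so their number does not measure how stable the results are. The other 10 values did not move by that much. Among those 10 are the 3838 regions with peaks of at least 200 bp and the 7764 with each list limited to the length of the shortest, both within 1.5 times. The shortest list is the Negative one, with 45461 peaks, so only the other lists were cut in that setting. Depth is unknown, which limits every count.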

Other observations

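Besides the run on chromosome 6, the largest group of Negative-only regions linked at 10 kb was on the X chromosome, where 5 of the 8 regions between 83007841 and 83028933 were Negative-only and all 8 had a Negative peak. In that span 1 region was held by all 4 lists and none by High alone. A group on chromosome 5, from 137626416 to 137639985, had 4 Negative-only regions of 6 with a median width of 396.5 bp and a Negative peak in each of the 6.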
